A study of Rattus norvegicus with 15 samples.

Results

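Hemoglobin and the enzyme that opens heme synthesis were followed through 5 genes: the alpha globin genes Hba-a1 and Hba-a2, the beta globin gene Hbb, and Alas2 and Alas1, which encode the erythroid and the housekeeping 5-aminolevulinate synthase. Every probe set (a group of short probes against a transcript) whose annotation names 1 of these genes, alone or with others, was taken. That gave 7 of the 8799 probe sets on the array, and all 7 passed the filter on dim signals. Total RNA came from rat midbrain neurons taken by laser capture microdissection, a method that cuts chosen cells out of a tissue section, and was hybridised to Affymetrix rat arrays. There were 8 arrays of the substantia nigra pars compacta (SNc), numbered 1 to 8, and 7 of the ventral tegmental area (VTA), numbered 1 to 6 and 8. The sources used here do not give strain, age, sex, treatment, the number of animals or how neurons were recognised. A p-value here reflects the scatter of these arrays, some of which may be technical, and the number of arrays limits the precision.

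Hemoglobin carries oxygen in red blood cells as a tetramer of alpha and beta chains, each holding a heme. Heme is made from glycine and succinyl-CoA, and 5-aminolevulinate synthase, in mitochondria, catalyses the first and rate-limiting step, through Alas2 in erythroid cells and Alas1 in most other cells. Globin mRNA is abundant in immature red cells and is a familiar sign of blood in a tissue sample, and globin transcripts have also been described in rodent midbrain dopamine neurons. In captured material, fewer cells of a type and less RNA per cell cannot be told apart.

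The alpha and beta globin genes lie on different chromosomes. In the RefSeq annotation of rat assembly GRCr8, Hba-a1 spans chr10:15841724-15842580, Hba-a2 chr10:15828291-15829138 and Hbb chr1:167662310-167663721. Alas2 lies at chrX:22890650-22914046 and Alas1 at chr8:115755238-115768642. The 250 bases upstream of the annotated start are shown for the globin genes and Alas1. Whether these sequences bear on the levels over the arrays was not tested. All 4 windows are read 5′ to 3′ on the minus strand. Capitals mark matches, on either strand, to CCAAT (the CCAAT box), to CACCC (the CACCC box), to GATAA (read by GATA factors) and to ATAAA (part of many TATA boxes), motifs long described in globin promoters.
Hba-a1: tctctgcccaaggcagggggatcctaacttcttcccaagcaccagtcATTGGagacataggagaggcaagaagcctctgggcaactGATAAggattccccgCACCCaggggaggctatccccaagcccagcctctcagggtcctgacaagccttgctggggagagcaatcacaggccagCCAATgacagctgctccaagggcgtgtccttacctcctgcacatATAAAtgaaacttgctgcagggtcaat
Hba-a2: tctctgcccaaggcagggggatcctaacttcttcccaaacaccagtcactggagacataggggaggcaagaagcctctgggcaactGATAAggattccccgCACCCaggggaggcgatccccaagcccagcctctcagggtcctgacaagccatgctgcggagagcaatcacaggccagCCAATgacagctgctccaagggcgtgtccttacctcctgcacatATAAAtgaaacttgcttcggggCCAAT
Hbb: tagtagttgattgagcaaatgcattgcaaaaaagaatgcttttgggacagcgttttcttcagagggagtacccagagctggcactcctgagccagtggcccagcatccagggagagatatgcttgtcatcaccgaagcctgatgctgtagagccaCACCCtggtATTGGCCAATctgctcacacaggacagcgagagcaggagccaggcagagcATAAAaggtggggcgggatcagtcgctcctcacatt
Alas1: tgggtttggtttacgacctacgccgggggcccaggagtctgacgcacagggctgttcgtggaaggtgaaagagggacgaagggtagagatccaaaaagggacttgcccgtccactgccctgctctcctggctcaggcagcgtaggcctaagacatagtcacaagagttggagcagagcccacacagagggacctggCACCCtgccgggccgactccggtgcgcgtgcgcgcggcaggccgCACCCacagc

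The windows are chr10:15842581-15842830 for Hba-a1, chr10:15829139-15829388 for Hba-a2, chr1:167663722-167663971 for Hbb and chr8:115768643-115768892 for Alas1. The Hba-a1 and Hba-a2 windows were identical at 241 of 250 bases. Each had CCAAT at 71 to 67 bases upstream of the start, CACCC at 149 to 145, GATAA at 164 to 160 and ATAAA at 27 to 23. Hba-a1 also had CCAAT on the other strand at 203 to 199 bases upstream, and Hba-a2 a further CCAAT at 5 to 1. The Hbb window had CCAAT at 81 to 77 bases upstream, directly beside a copy on the other strand, CACCC at 95 to 91 and ATAAA at 36 to 32, and no GATAA. No matches overlapped. The Alas1 window had CACCC alone, at 54 to 50 and at 10 to 6 bases upstream. These short motifs are common: of 33469 promoter windows of the same length, 34.0% held CCAAT, 49.2% CACCC, 23.5% GATAA and 39.3% ATAAA. A match is a run of letters, not a shown binding site. The window listed for Alas2 starts inside the annotated gene and is not shown.

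Median signal per array lay between 38.0 and 46.8. The arrays showed the dopamine neuron markers in both regions. Th, which encodes tyrosine hydroxylase, averaged 6615 ± 527 in SNc (SD, n = 8) and 7193 ± 770 in VTA (SD, n = 7). Across all 5244 probe sets tested, limma called 104, or 1.98%, at an adjusted p under 0.05, of which 44 (0.839%) were higher and 60 (1.14%) lower in SNc.

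Of the 7 globin and synthase probe sets, 0 passed between SNc and VTA (limma, adjusted p 0.255 to 0.589). This is near the background of 1.98%, and it does not show that the regions were equal. At an unadjusted p under 0.05, 1 of the 7 passed, an Alas1 probe set, where 15.4% of all probe sets did. That count lay between 0 and 4 when 1 array was left out, with 4 without VTA 4 and 0 without any of SNc 2, SNc 4, VTA 1, VTA 5 or VTA 6. The 5 globin-bearing and Alas2 probe sets were lower in SNc in value and both Alas1 probe sets were higher. Of all probe sets tested, 56.7% were lower in SNc. The SNc and VTA arrays overlapped for all 7, while 0.858% of all probe sets had no overlap.

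The alpha globin probe set X56325mRNA_s_at matches both Hba-a1 and Hba-a2, so these copies could not be told apart. Its signal was 56.0 at the lowest, 107 at the median and 145 at the highest in SNc, against 37.6, 149 and 682 in VTA. The means were 106 ± 34.9 in SNc (SD, n = 8) and 237 ± 244 in VTA (SD, n = 7). The VTA arrays spread around the SNc arrays on both sides, with 4 VTA arrays above every SNc array and 2 below every one. VTA 3 had 682 and VTA 5 had 468, and the next highest was VTA 2 at 184. The lowest were VTA 4 at 37.6 and VTA 8 at 50.4. The difference, SNc minus VTA, was -0.54 on the log2(signal + 16) scale (SE 0.44, 95% interval -1.46 to 0.37, limma adjusted p = 0.589).

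The beta globin probe set rc_AI179576_s_at is annotated to Hbb together with the related genes Hbb-b1, Hbb-bs and Hbbl1, and is called the beta globin group here. It ran from 349 through a median of 492 to 778 in SNc, and from 276 through 767 to 2610.3 in VTA. Again VTA 3 and VTA 5 were highest, at 2610.3 and 1779.6, followed by VTA 2 at 1149, and these 3 lay above every SNc array. VTA 8 and VTA 4, at 276 and 325, lay below every SNc array. The mean was 538 ± 159 in SNc (SD, n = 8) and 1059 ± 864 in VTA (SD, n = 7), a log2 difference of -0.59 (SE 0.39, 95% interval -1.40 to 0.21, limma adjusted p = 0.494).

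The probe set M94918mRNA_f_at carries the symbol Hbb alone, although its design may also bind other beta globin transcripts. Its signal was 97.9, 154 and 304 at the lowest, median and highest in SNc, against 59.9, 279 and 1195 in VTA. VTA 3, VTA 5 and VTA 2 were again the highest arrays, at 1195, 847 and 433, and VTA 4 was the lowest of all 15. Hbb averaged 174 ± 75.1 in SNc (SD, n = 8) and 437 ± 429.5 in VTA (SD, n = 7). The log2 difference was -0.73 (SE 0.47, 95% interval -1.72 to 0.26, limma adjusted p = 0.494). All 3 globin probe sets therefore put the same arrays at the top and VTA 4 and VTA 8 near the bottom.

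**Figure D1:**
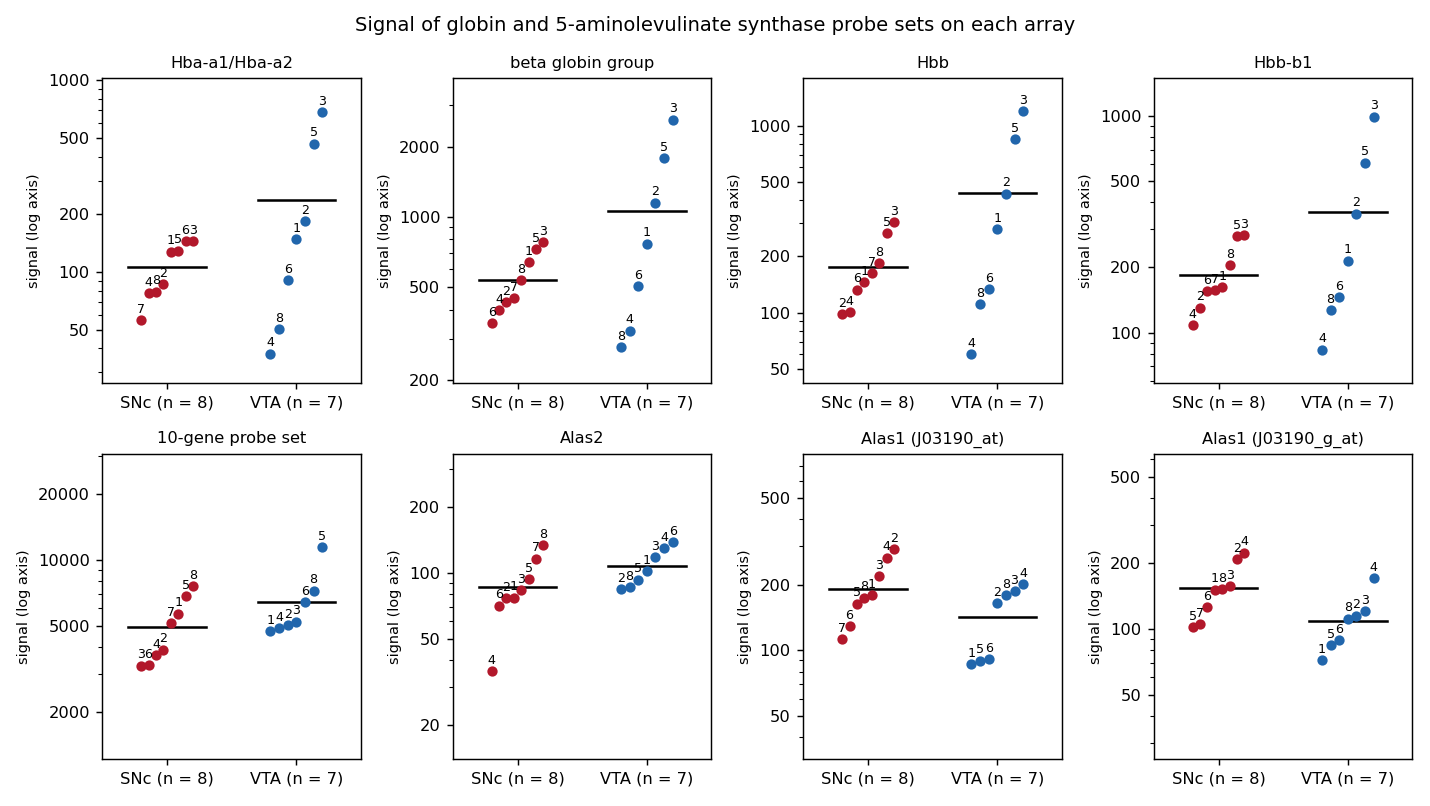
Signal (linear intensity on a log axis) of the 7 globin and synthase probe sets and of Hbb-b1 on each array, with 8 SNc arrays at the left and 7 VTA arrays at the right of each panel. Points are arrays with their number, sorted by level, and bars are means of the signals. For alpha globin, the beta globin group and Hbb, VTA 3 and VTA 5 stand above all other arrays, while for Alas2 they lie among the rest. For both Alas1 probe sets VTA 3 lies among the rest and VTA 5 lies below every SNc array.

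Globin levels varied most within VTA. The SD of the alpha globin probe set on the log2 scale was 0.44 in SNc and 1.39 in VTA, a VTA over SNc ratio of 3.18 that 0.744% of the tested probe sets reached. For the beta globin group the SDs were 0.41 in SNc and 1.20 in VTA, a ratio of 2.92, and for Hbb they were 0.54 and 1.48, a ratio of 2.73. The median ratio over all probe sets was 0.952. By within-region SD, Hbb ranked 9, alpha globin 23 and the beta globin group 57 of 5244, where the median SD was 0.36. The highest of the 15 arrays had 20.0 times the lowest for Hbb, 18.2 times for alpha globin and 9.45 times for the beta globin group, whereas within SNc these ratios were 3.11, 2.59 and 2.23. For Alas2 the ratio was 3.92 over all 15 arrays and 3.79 within SNc.

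The regional differences in globin depended on single VTA arrays. Leaving out 1 array at a time gave log2 differences of -0.82 to -0.21 for alpha globin, -0.84 to -0.31 for the beta globin group and -1.06 to -0.39 for Hbb, the most negative without VTA 4 (VTA 8 for the beta globin group) and the nearest to 0 without VTA 3. Without VTA 3 and VTA 5, the highest arrays, a choice made after their values were seen, the log2 difference was 0.16 for alpha globin (SE 0.30, adjusted p = 0.843), -0.02 for the beta globin group (SE 0.30, adjusted p = 0.981) and -0.02 for Hbb (SE 0.36, adjusted p = 0.987). The differences of the synthases moved little, to -0.32 for Alas2 and 0.38 and 0.41 for the Alas1 probe sets. VTA 3 and VTA 5 were picked for their high globin signals, so the globin differences had to rise without them. The synthases had no part in that choice, so the contrast between globins and synthases is not a test.

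**Figure D2:**
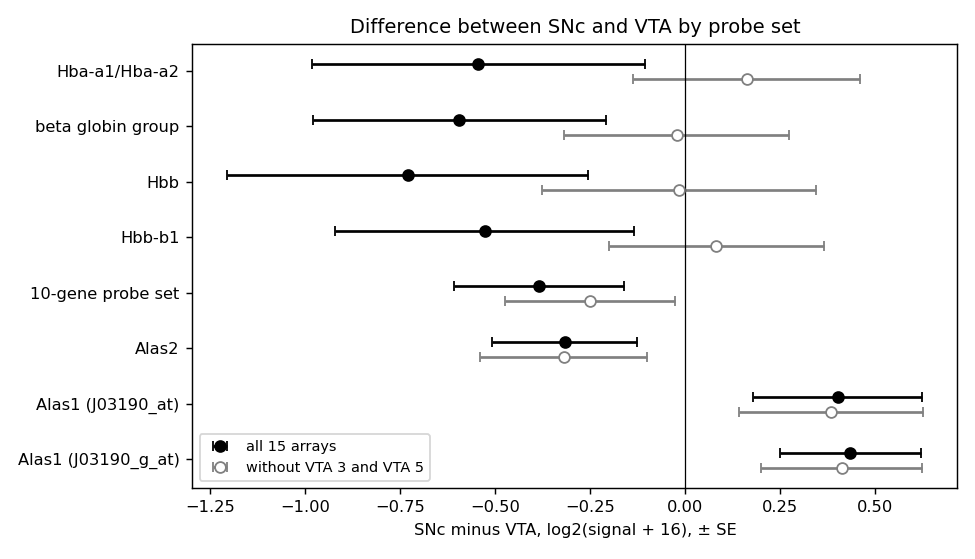
Difference between regions, SNc minus VTA in log2(signal + 16), with its standard error as bars, over all 15 arrays (filled) and without VTA 3 and VTA 5 (open). Without those arrays the differences of alpha globin, the beta globin group, Hbb and Hbb-b1 lie between -0.02 and 0.16, while those of Alas2 and Alas1 stay close to their values over all arrays. The arrays left out were picked for their high globin signals, so this contrast is not a test.

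A pair of neighbouring globin probe sets outside the 5 genes was set beside these. Hbb-b1, an adult beta globin gene, had 185 ± 65.0 in SNc (SD, n = 8) and 361 ± 332 in VTA (SD, n = 7), a log2 difference of -0.53 (SE 0.39, adjusted p = 0.563). It correlated with Hbb at r = 0.989 over the 15 arrays, which may reflect shared sequence as well as shared level. Hba-a3, a further alpha globin gene, was dim at 18.3 in SNc and 24.3 in VTA and fell below the filter.

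The probe set rc_AI176460_s_at is annotated to 10 symbols, among them Hba-a2, Hbb and the ribosomal RNA genes Rn45s and Rn5-8s, so its signal cannot be given to a globin. It ran from 3273 through 4499.6 to 7612 in SNc and from 4724 through 5213 to 11418 in VTA. VTA 5 was the highest array, but VTA 3 stood at 5213, in the middle of its region. Its log2 difference was -0.38 (SE 0.22, adjusted p = 0.434). It followed the other globin probe sets weakly, with r = 0.11 against alpha globin, 0.20 against the beta globin group and 0.24 against Hbb over 15 arrays.

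Alas2, the erythroid synthase whose loss causes sideroblastic anemia in humans, was not highest on the arrays where the globins were. Its lowest, median and highest signals were 35.5, 80.3 and 134 in SNc, against 84.2, 102 and 139 in VTA. VTA 3 had 119 and VTA 5 had 93.3, both inside the SNc range, and the lowest array was SNc 4. Alas2 averaged 86.1 ± 30.0 in SNc (SD, n = 8) and 107 ± 21.8 in VTA (SD, n = 7), a log2 difference of -0.32 (SE 0.19, 95% interval -0.72 to 0.08, limma adjusted p = 0.453).

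Alas1, the synthase of non-erythroid cells, was measured by a pair of probe sets that followed each other at r = 0.889. For J03190_at the lowest, median and highest signals were 113, 177 and 292 in SNc, against 86.8, 164 and 201 in VTA. For J03190_g_at they were 102, 152 and 224 in SNc, against 71.7, 111 and 171 in VTA. SNc 2 and SNc 4 were highest for both, and VTA 1, VTA 5 and VTA 6 lay below every SNc array for both. The log2 differences were 0.40 (SE 0.22, 95% interval -0.07 to 0.87, limma adjusted p = 0.400) for J03190_at and 0.44 (SE 0.19, 95% interval 0.05 to 0.83, adjusted p = 0.255) for J03190_g_at. The second had an unadjusted p of 0.0306 and neither passed after adjustment.

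Alpha and beta globin varied together, while no relation of either with the synthases passed. With the mean of each region removed, the alpha globin probe set and the beta globin group correlated at r = 0.923 over 15 arrays (permutation p = 0.00021, adjusted p = 0.00714 over 34 relations). Spearman's rho was 0.818 (permutation p = 0.00156, adjusted p = 0.053). Without VTA 3 and VTA 4, the arrays farthest from the median of alpha globin, r was 0.854, and without VTA 3 and VTA 5 it was 0.795. The correlation was 0.985 within the 7 VTA arrays (exact permutation p = 0.000397, adjusted p = 0.0135) and 0.430 within the 8 SNc arrays (exact permutation p = 0.28). It therefore did not pass within SNc alone, where globin varied less.

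Against Alas2, r was -0.11 for alpha globin (permutation p = 0.61, rho -0.19) and 0.05 for the beta globin group (permutation p = 0.819, rho 0.04). Within regions, the beta globin group had an r with Alas2 of 0.35 in SNc (rho 0.60) and -0.14 in VTA (rho -0.11), and Hbb 0.51 in SNc and -0.29 in VTA. Alpha globin had -0.15 with Alas2 in both regions. Whether these differ between regions was not tested. Against Alas1, r was -0.14 for alpha globin (permutation p = 0.644, rho -0.15) and -0.09 for the beta globin group (permutation p = 0.762, rho -0.15). Alas2 and Alas1 had an r of -0.35 with each other (permutation p = 0.207, rho -0.33). None of these relations passed after adjustment, and 15 arrays leave wide room around each r. Globin and Alas2 thus could not be shown to share their array-to-array variation.

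**Figure D3:**
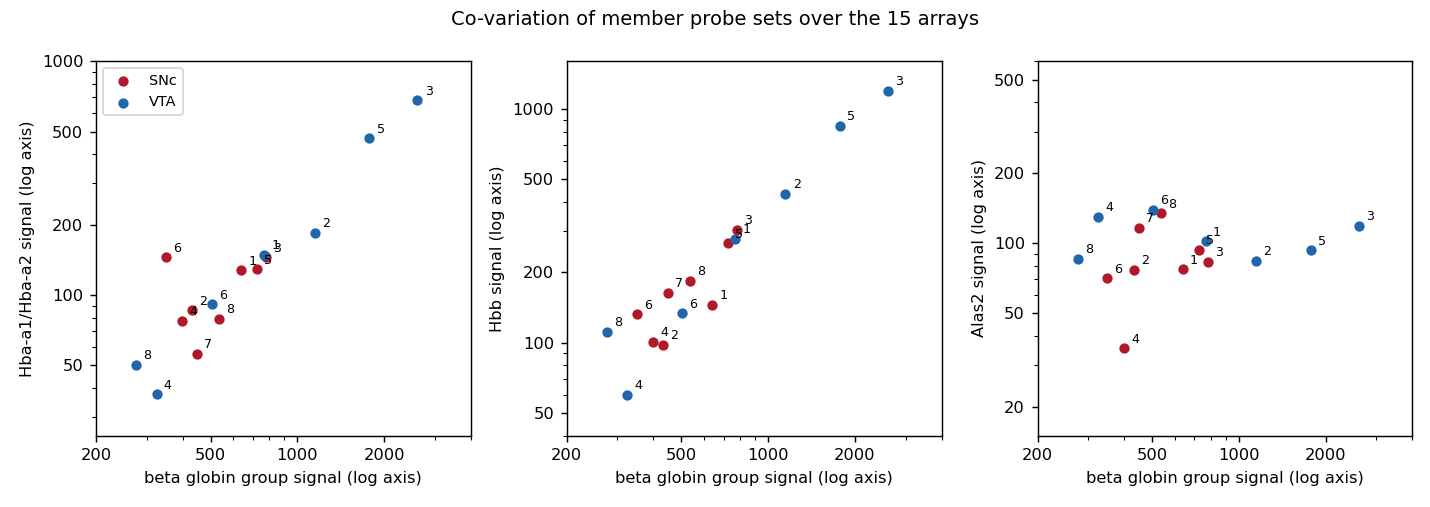
Signal of alpha globin, Hbb and Alas2 against that of the beta globin group on the 15 arrays (log axes, linear intensities; SNc red, VTA blue, numbers are arrays). Alpha globin and Hbb follow the beta globin group from VTA 4 and VTA 8 at the low end to VTA 5 and VTA 3 at the high end. Alas2 runs from 35.5 on SNc 4 to 139 on VTA 6.

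The probe sets most like the globins were ranked by their r with the mean of alpha globin and the beta globin group, over 15 arrays with region means removed, among 4296 candidates with a single symbol. All 15 points share array and scaling, so the ranking is a description. Hbb-b1 came first at 0.96, followed by Id3 (an inhibitor of helix-loop-helix transcription factors) at 0.88, Apod (apolipoprotein D) at 0.85 and Cyp7b1 (an oxysterol hydroxylase) at 0.82. Rpl22 (a ribosomal protein) stood at 0.80, Plat (tissue plasminogen activator), Col1a1 (a chain of type I collagen) and Aqp4 (the astrocyte water channel) each at 0.79. Without VTA 3 and VTA 5 these values lay between 0.52 for Apod and 0.88 for Hbb-b1, and that of Col1a1 was 0.83.

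Apod and Col1a1 differed on VTA 5. Apod was 548 to 726 in SNc and 635 to 885 on the other VTA arrays, against 1386 in VTA 3 and 1279.8 in VTA 5. Col1a1 was 47.7 to 191 in SNc and 20.2 to 148 on the other VTA arrays, with 795 in VTA 3 and 79.5 in VTA 5. Both arrays were thus above all others for Apod, and VTA 3 alone was for Col1a1, although its r did not fall without them.

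The probe sets most like Alas2 were others. Tnxa-ps1 (a tenascin pseudogene) and Sec14l3 had an r of 0.84, Gstm2 (a glutathione transferase) 0.83, Mdm2 (the ubiquitin ligase that acts on p53) 0.80 and Lhcgr (the receptor for luteinizing hormone) 0.76. Mdm2 was also lower in SNc, at 110 against 167 in VTA, a log2 difference of -0.56 (SE 0.14, adjusted p = 0.0443), a call that was lost in 17 of the 24 alternatives. The other 4 did not pass, with adjusted p from 0.288 to 0.876.

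The rest of the heme pathway showed 0 calls in either direction among 3 tested genes of 7 listed, with a median log2 difference of -0.02 where that of all probe sets was -0.04. Alad, which joins 2 molecules of 5-aminolevulinate, had 156 ± 51.8 in SNc (SD, n = 8) and 155 ± 42.6 in VTA (SD, n = 7). Urod, the uroporphyrinogen decarboxylase, had a log2 difference of -0.09. Ppox, the protoporphyrinogen oxidase, had 69.5 ± 17.2 in SNc (SD, n = 8) and 44.4 ± 18.4 in VTA (SD, n = 7), a log2 difference of 0.54 (SE 0.20, adjusted p = 0.182). Its other probe set had a difference of 0.01, so the probe sets of Ppox disagreed.

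Heme breakdown and iron handling showed no calls either. Of 17 listed genes of heme breakdown, transport and binding, 9 were tested and 0 passed, with a median of -0.14. Among the brightest probe sets of the genes, the smallest p belonged to Blvra, the biliverdin reductase, at -0.31 (SE 0.12, adjusted p = 0.212), with 370 ± 24.0 in SNc and 468 ± 69.0 in VTA (SD, n = 8 and 7). Cyb5a, a cytochrome b5, followed at -0.45 (adjusted p = 0.351; a dimmer Cyb5a probe set had -0.73, adjusted p = 0.155) and Hp, haptoglobin, at -0.29 (adjusted p = 0.381). Of 13 listed genes of iron uptake and storage, 4 were tested and 0 passed, with a median of 0.12. Slc11a2, an iron importer, had 0.30 (adjusted p = 0.443), Cp, ceruloplasmin, -0.21 (adjusted p = 0.539) and Hfe, a regulator of iron uptake, 0.15 (adjusted p = 0.622).

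Of 7 other globins listed, Hbe1, an embryonic beta-type globin, was the only one tested, at 39.0 ± 14.2 in SNc and 33.4 ± 9.17 in VTA (SD, n = 8 and 7; log2 difference 0.13, adjusted p = 0.754). Hbg1 was below the filter, at 7.17 in SNc and 9.87 in VTA. Hbe1 had 50.5 on VTA 5, the highest VTA array, and 28.0 on VTA 3.

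Other red cell genes did not as a list follow the globins. Of 22 listed erythroid genes, 7 had a probe set, 5 were tested and 0 passed, with a median of -0.07. Their summed signal was 591 to 1010.4 in SNc and 639.8 to 878 in VTA, with 849 in VTA 3 and 819.96 in VTA 5, which ranked 4 and 5 of the 7 VTA arrays. Single genes differed. Car2, which makes up most of that sum and is also expressed by oligodendrocytes, was highest among VTA arrays on VTA 3 (537). Car2 had 533 on VTA 5, while Epb41 was lowest on VTA 5, at 3.49, and had 54.3 on VTA 3. Gata1, the erythroid transcription factor, was below the filter at 20.3 in SNc and 18.0 in VTA, with 23.1 on both VTA 3 and VTA 5 near its VTA maximum of 23.2, and Epor, the erythropoietin receptor, at 7.48 in SNc and 7.71 in VTA. Their list mean had an r of -0.46 with alpha globin (permutation p = 0.0383, adjusted p = 0.186) and -0.41 with the beta globin group (permutation p = 0.0829, adjusted p = 0.282).

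Among the tested erythroid genes, Rhag, an ammonia channel of the red cell membrane, had 21.9 ± 10.8 in SNc and 39.7 ± 8.73 in VTA (SD, n = 8 and 7), a log2 difference of -0.60 (SE 0.19, adjusted p = 0.109). Rhd, a blood group protein, had -0.24 (adjusted p = 0.495), Epb41, a membrane skeleton protein, 0.37 (adjusted p = 0.650) and Slc4a1, the anion exchanger, 0.02 (adjusted p = 0.963). Car2, a carbonic anhydrase, had -0.07 (adjusted p = 0.891). Of 8 platelet genes listed, 4 were tested and 0 passed. Pf4, platelet factor 4, had 25.1 ± 26.0 in SNc and 54.4 ± 14.0 in VTA (SD, n = 8 and 7), a difference of -0.98 (SE 0.30, adjusted p = 0.102). The SNc means of Rhag and Pf4 lay below the filter level of about 26.3. Itgb3 had -0.13 and Selp 0.07.

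Markers of other cells moved with the globins on some arrays. In a family of 34 relations that included those among the members, 28 set alpha or beta globin against a list mean or an array measure. Of these, 0 passed after adjustment over all 15 arrays and 6 had an unadjusted permutation p under 0.05, with r between -0.62 and 0.73. Oligodendrocyte genes had the highest r with alpha globin, at 0.73 (permutation p = 0.00799, adjusted p = 0.136, rho 0.56). Within the 7 VTA arrays it was 0.97 for alpha globin (exact permutation p = 0.00099, adjusted p = 0.0169) and 0.96 for the beta globin group (exact permutation p = 0.00198, adjusted p = 0.0225), and within the 8 SNc arrays it was -0.06 and -0.61. Over both regions without VTA 3 and VTA 5 it was 0.39 for alpha globin and 0.14 for the beta globin group. Within VTA alone, r stayed high without the arrays farthest from the median of each globin. It was 0.95 for alpha globin without VTA 3 and VTA 4, and 0.99 for the beta globin group without VTA 3 and VTA 8. Spearman's rho within VTA was 0.96 and 0.89. These values beside the globins were not tested as a cause.

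The oligodendrocyte sum was 5512 to 9772 in SNc and 7868 to 11545 in VTA, with 11545 in VTA 3 and 10956 in VTA 5, and 0 of 6 tested genes passed. Mobp had -0.53 (adjusted p = 0.248), Mbp -0.36 (adjusted p = 0.331) and Mog -0.17 (adjusted p = 0.730), all proteins of myelin. Dopamine neuron genes went the other way, with r = -0.62 for alpha globin (permutation p = 0.0185, adjusted p = 0.158) and -0.58 for the beta globin group (permutation p = 0.0362, adjusted p = 0.186). These became -0.26 and -0.19 without VTA 3 and VTA 5. Within VTA they were -0.80 and -0.81 (exact permutation p = 0.0175 and 0.0139, adjusted p = 0.0989 for both), and within SNc -0.22 and 0.01. The dopamine neuron sum was 27409.8 to 34516 in SNc and 23734 to 34229 in VTA. VTA 3 was the lowest VTA array for it, and VTA 5 ranked 4 from the highest, at 28602. Of the 10 dopamine neuron genes tested, Gch1, which makes the tetrahydrobiopterin cofactor of Th, fell in SNc (-1.34, adjusted p = 0.00163), while Slc6a3 had 0.34 (adjusted p = 0.193) and Nr4a2 -0.65 (adjusted p = 0.228).

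Vessel wall genes had an r of 0.50 with alpha globin (permutation p = 0.0363, adjusted p = 0.186) and 0.55 with the beta globin group (permutation p = 0.0145, adjusted p = 0.158). Without VTA 3 and VTA 5 these were 0.11 and 0.24. Within the 8 SNc arrays they were 0.39 and 0.64 (exact permutation p = 0.357 and 0.0436, adjusted p = 0.732 and 0.611). For the beta globin group, rho within SNc was 0.88 (exact permutation p = 0.00724, not adjusted). Within the 7 VTA arrays r was 0.66 for alpha globin and 0.63 for the beta globin group (exact permutation p = 0.075 and 0.1). The vessel wall sum was 469.6 to 841 in SNc and 482 to 1006 in VTA, with 1006 in VTA 3 and 633 in VTA 5, the 2 highest of the VTA arrays. Single genes differed. On VTA 3, Slco1a4 (438), Tagln (171) and Acta2 (134) were at their VTA highest and Pecam1 (36.3) at its lowest. On VTA 5, Kdr (59.9) and Pdgfrb (88.3) were at their VTA highest and Flt1 (17.1) at its lowest. Of 9 tested vessel genes 0 passed, among them Kdr, a VEGF receptor, at -0.42 (adjusted p = 0.291), Pdgfrb at 0.23 (adjusted p = 0.668) and Pecam1 at -0.14 (adjusted p = 0.694). Their part in the globin signal was not tested.

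Astrocyte genes had an r of 0.60 with alpha globin (permutation p = 0.051, adjusted p = 0.205) and 0.45 with the beta globin group. Without VTA 3 and VTA 5 these were -0.01 and -0.27, and within SNc -0.31 and -0.71. Within VTA, astrocyte genes had 0.84 and 0.77 (exact permutation p = 0.0167 and 0.0379, adjusted p = 0.0989 and 0.184). Of 6 tested, 0 passed. Aqp4 had -0.60 (adjusted p = 0.363), Slc1a2 -0.30 (adjusted p = 0.538) and S100b -0.13 (adjusted p = 0.781). Leukocyte and microglia lists had r between 0.11 and 0.23 with either globin, with 0 of 5 and 0 of 3 tested genes passed. For microglia the regions had opposite signs. Within SNc, r was -0.75 for alpha globin (exact permutation p = 0.0297, adjusted p = 0.611) and -0.34 for the beta globin group, and within VTA 0.62 and 0.60. Without VTA 3 and VTA 5, r was -0.55 and -0.28 for the microglia list and -0.10 and -0.05 for the leukocyte list. In these lists Lck had -0.41 (adjusted p = 0.253), Cd8b -0.22 (adjusted p = 0.618), Lyz2 0.19 (adjusted p = 0.723), Ctss 0.25 (adjusted p = 0.665), Cx3cr1 -0.21 (adjusted p = 0.684) and C1qc -0.11 (adjusted p = 0.741). The microglia sum was 729 to 1529.6 in SNc and 689 to 1833 in VTA, with 1833 in VTA 3 and 1179 in VTA 5. Ctss made up most of that sum, with 1695 in VTA 3 and 1044 in VTA 5. The other tested genes were not raised there. Cx3cr1 had 34.1 and 25.1 against a VTA mean of 35.6, and C1qc 103 and 110 against 115. The leukocyte sum was 335 to 507 in SNc and 389 to 555 in VTA, with 497 in VTA 3 and 555 in VTA 5. The median signal and the actin and GAPDH ratios of 3′ over 5′ signal, which rise where the 5′ end of transcripts is poorly covered, had r between 0.04 and 0.30 with either globin.

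**Figure D4:**
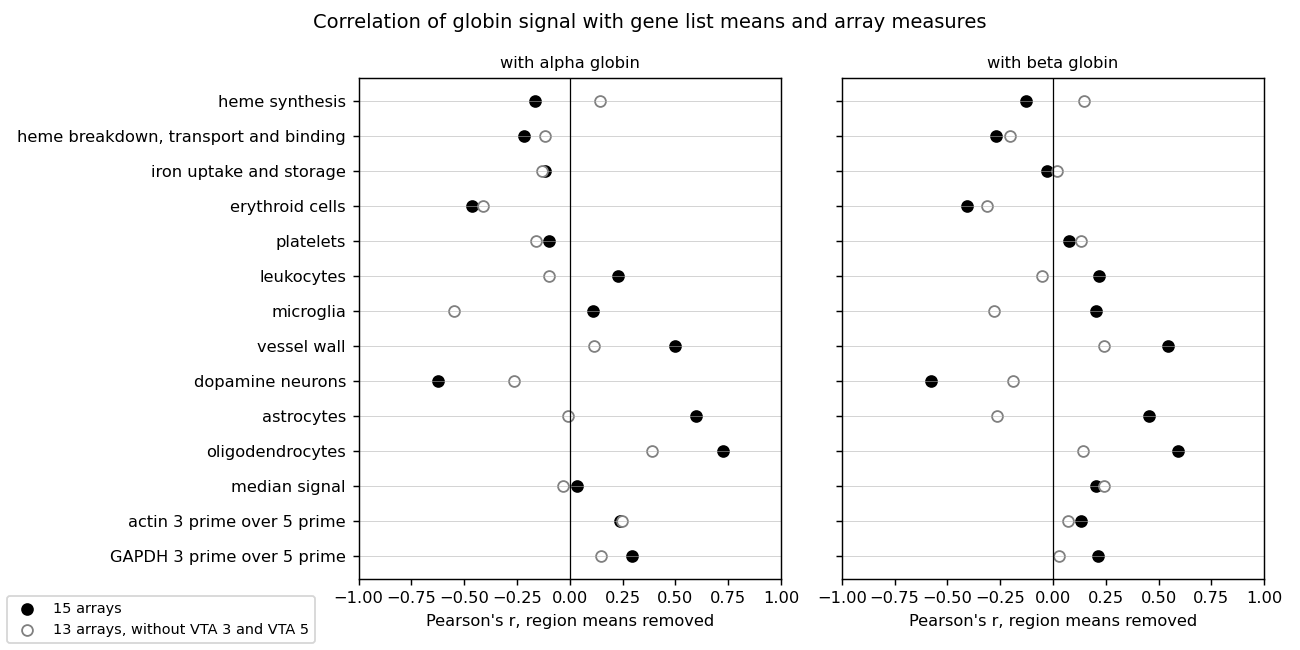
Pearson's r of alpha globin (left) and the beta globin group (right) with the mean log2 level of each gene list and with 3 array measures, region means removed, over 15 arrays (filled) and without VTA 3 and VTA 5 (open). Oligodendrocyte genes lie highest and dopamine neuron genes lowest over 15 arrays. The erythroid list lies at -0.46 and -0.41, below 0 for both globins.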

How the data were processed

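The authors deposited 1 linear intensity per probe set and array; their 2% trimmed mean was 150.2 on every array, so they appear scaled before deposit, and this was kept. The sources used here name no software or background correction. Of 8799 probe sets, 59 controls were left out. Intensities became log2(intensity + 16), and the dimmest 40% by mean were removed (signals under about 26.3), leaving 5244. SNc and VTA were compared with limma 3.58.1 in R 4.3.3 (lmFit, eBayes, two-sided), with Benjamini-Hochberg adjustment over all 5244 and a threshold of 0.05. The procedure was tested on simulated data. The offset makes differences of dim probe sets smaller.

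Symbols come from the platform annotation, which can be old, and coordinates and promoters from RefSeq (GRCr8). A gene in a list was represented by its brightest probe set. The brightest alpha and beta globin probe sets, without the 10-symbol one, stood for the globins in correlations, and the brightest Alas2 and Alas1 probe sets for the synthases. Correlations removed region means and used 100000 permutations within regions (two-sided), or all permutations within 1 region, adjusted over 34 relations. List sums and means are over tested genes.

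The members and the 12 gene lists were chosen with earlier results of these data known. The genes named were all members, all heme synthesis, other globin and erythroid genes with a probe set, the 3 smallest p and any past the threshold in other lists, and the 8 and 5 probe sets most like the globins and Alas2. Apod and Col1a1 are described further because of their values. Alternatives were offsets of 1 and 64, quantile normalization and median centring, other filters, a replicate block, other variance settings and leaving out each array, with VTA 3 and VTA 5 left out together added after seeing the data.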

Additional observations from a re-analysis of the deposited data

Results flagged for a closer look

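The probe set annotated to 10 symbols, including Hba-a2 and Hbb, read 11418 in VTA 5, far from the other 6 VTA arrays for their range on the signal scale. On the log2 scale it was not. It was 1 of 18 combinations of probe set and region tested for an array apart, and chance gives about 1 in 20.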

How the results depend on the processing

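No globin or synthase probe set passed in any of the 24 alternatives. Calls over all probe sets went from 104 to 60 with an offset of 1, to 150.0 with an offset of 64 and to 63 without VTA 3 and VTA 5, and lay between 56 and 115 when 1 array was left out. The replicate block gave 99 calls and 0 among the members, of which 3 had an unadjusted p under 0.05. With the block, the limma adjusted p of Alas1 was 0.118 for J03190_at and 0.0907 for J03190_g_at, against 0.400 and 0.255 without it. The numbers were not taken to pair the arrays, since the labels tie no number to an animal. The correlation of deviations of same-numbered arrays ran from 0.0439 to 0.254, positive for all 7 numbers and over 0.1 for 5 of 7. It was not set against that of arrays with different numbers. Whether the numbers mark pairs was not tested, so a pairing may have been left unused.

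Without VTA 3 and VTA 5, differences turned to 0.16 for alpha globin (X56325mRNA_s_at), 0.082 for Hbb-b1, 0.028 for Car2, 0.093 for S100b, 0.052 for Mog and 0.12 for Col1a1. Median centring turned Urod to 0.00038, Alad to 0.075, Car2 to 0.027 and Tnxa-ps1 to 0.012, and the r of the beta globin group with Alas2 to -0.017. Quantile normalization turned Alad to 0.014 and Tnxa-ps1 to 0.021. Leaving out 1 array at a time turned some values near 0. The ranges were -0.15 to 0.013 for Urod, -0.094 to 0.098 for Alad, -0.13 to 0.019 for Car2, -0.036 to 0.081 for Slc4a1, -0.038 to 0.22 for Selp, -0.65 to 0.099 for Col1a1 and -0.18 to 0.029 for Tnxa-ps1. The r ranged from -0.063 to 0.16 for the beta globin group with Alas2, from -0.40 to 0.036 for alpha globin with Alas1 and from -0.33 to 0.059 for the beta globin group with Alas1. The cause was not tested. Rhag passed with the replicate block (adjusted p = 0.0467) and Pf4 without SNc 7 or without SNc 8, and Mdm2 lost its call in 17 alternatives. Signals below the filter, such as Gata1 and Epor, limit what could be seen of the erythroid genes.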
